A study of Mus musculus with 6 samples.

Results

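Red cell genes were examined in Tlx1 homozygous against Tlx1 heterozygous spleens of mouse embryos at E13.5, as a set of 34 genes of globin and heme production, the red cell membrane and erythroid transcription. The members were listed by symbol, and a gene was measured where a probe set carried its symbol alone. That held for 32 of the 34, all of which passed the filter on dim probe sets, among 18710 genes tested in all. Ahsp, which encodes a chaperone of free alpha globin, and Epb41, which encodes a linker of spectrin and actin, had no such probe set and are not analysed here.

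Total RNA was hybridised to 6 Affymetrix arrays, 3 for homozygous and 3 for heterozygous spleens. The labels name the zygosity at Tlx1, a homeobox gene required for spleen formation, but not the allele or the strain. The homozygous group is taken to carry the altered allele on both chromosomes, so the heterozygous controls carry it too, and no array of unaltered spleens was used. The labels do not say whether a replicate was 1 embryo or a pool, so the p-values reflect sample spread that may be technical only. Tlx1 itself had an intensity of 193 ± 19.9 in homozygous and 750.0 ± 65.3 in heterozygous spleens (SD, n = 3 each), with a log2 fold change of -1.95 ± 0.09 (SE; limma, adjusted p = 1.3e-05). The position of its probe set relative to the altered sequence was not analysed here. The spleen mesenchyme markers had summed intensities of 6441 to 7184 in homozygous and 8702 to 8903 in heterozygous arrays. Of the 6 measured, 5 were lower in homozygous spleens at an adjusted p below 0.05, as were 6.56% of all genes. These were Tlx1, Nkx2-5, Nkx3-2, Wt1 and Tcf21. In the other, Barx1, every homozygous array was higher, as in 21.1% of all genes (log2 fold change 0.27 ± 0.08 SE, limma adjusted p = 0.0517).

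Red cells of the mid-gestation mouse embryo come in successive waves. Primitive erythroblasts arise in the yolk sac, circulate and make the embryonic globins, while definitive erythroblasts mature in the fetal liver and make the adult globins. Hemoglobin production couples globin chains to heme, which is built from glycine and succinyl-CoA by enzymes split between mitochondria and cytosol, with iron brought in by the transferrin receptor and by mitochondrial carriers. The transcription factors GATA1 and KLF1 drive many of these genes, through GATA words and CACCC-like words in their promoters. The embryonic spleen is not a main site of red cell production at this stage, and its blood vessels carry circulating red cells. In bulk tissue such as this, fewer red cells and less of a transcript in each red cell cannot be told apart.

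Since several members fell together, the 250 bases before the transcript start were read for 5 members that fell and that represent globins, heme synthesis and the membrane. They are RefSeq promoter windows of the build GRCm38.p6, printed 5′ to 3′ on the strand of the gene. Capitals mark GATA words (AGATAA or AGATAG or TGATAA or TGATAG) and KLF words (CCNCNCCC, where N is any base), each searched on both strands.
Hbb-y at chr7:103853208-103853457, minus strand: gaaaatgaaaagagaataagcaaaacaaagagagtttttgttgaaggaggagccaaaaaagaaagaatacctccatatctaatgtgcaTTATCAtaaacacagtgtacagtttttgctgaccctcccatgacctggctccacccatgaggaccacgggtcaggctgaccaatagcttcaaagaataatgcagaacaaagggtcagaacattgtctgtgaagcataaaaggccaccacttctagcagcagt
Hba-x at chr11:32276350-32276599, plus strand: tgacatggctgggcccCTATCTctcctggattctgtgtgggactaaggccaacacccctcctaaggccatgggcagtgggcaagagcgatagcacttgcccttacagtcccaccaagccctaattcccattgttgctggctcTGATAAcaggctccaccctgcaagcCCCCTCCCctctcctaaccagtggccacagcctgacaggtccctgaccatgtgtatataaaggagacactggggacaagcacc
Alas2 at chrX:150547167-150547416, plus strand: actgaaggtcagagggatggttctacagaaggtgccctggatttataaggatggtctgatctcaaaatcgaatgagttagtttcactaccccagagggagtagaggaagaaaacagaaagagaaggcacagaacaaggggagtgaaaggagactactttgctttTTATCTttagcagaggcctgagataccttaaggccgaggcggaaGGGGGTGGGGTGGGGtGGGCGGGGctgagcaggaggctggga
Rhag at chr17:40810899-40811148, plus strand: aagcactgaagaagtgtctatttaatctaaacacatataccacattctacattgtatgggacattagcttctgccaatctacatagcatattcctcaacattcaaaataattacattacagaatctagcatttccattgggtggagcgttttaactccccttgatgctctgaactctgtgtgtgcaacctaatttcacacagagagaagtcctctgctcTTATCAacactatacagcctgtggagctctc
Epb42 at chr2:121036878-121037127, minus strand: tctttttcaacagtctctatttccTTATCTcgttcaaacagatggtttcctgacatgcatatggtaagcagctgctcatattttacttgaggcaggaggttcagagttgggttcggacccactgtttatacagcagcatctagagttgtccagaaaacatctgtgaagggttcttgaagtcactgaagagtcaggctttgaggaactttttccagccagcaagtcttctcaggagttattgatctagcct
Each of these 5 windows holds a GATA word, while the 2 windows of Tfrc, the other member that fell and had a window, hold none and are not printed. That of Rhag lies 31 to 26 bases before the start, that of Alas2 86 to 81 and that of Hbb-y 162 to 157, all 3 on the strand opposite to the gene. For Rhag that start is downstream of the base where the annotated gene begins (40811099), so its GATA word lies within the gene. Hba-x holds 2 GATA words, the nearer 108 to 103 bases before the start, and a KLF word. Alas2 holds 4 KLF words, of which 3 overlap in 1 run of capitals and the other, 26 to 19 bases before the start, stands alone. Of the 34 members 26 had a window in the RefSeq table, with 31 windows between them because some genes have several starts. A GATA word stood in 17 of the 31 windows, against 26.5% of all 32841 windows, and a KLF word in 18, against 45.9%. The NF-E2 core TGANTCA, also searched on both strands, stood in 2, those of Kel and Trim10, against 6.75% of all windows. By gene, 17 of the 26 members with a window held a GATA word, among them 5 of the 6 that fell. Members that were not called, such as Cpox, Add2 and Epor, held a GATA word too. A match is a description of the letters and not of binding.

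Of the 32 measured members 8 were lower in homozygous spleens and none was higher at an adjusted p below 0.05 in limma, which fitted all genes together on log2(intensity + 1). Over all 18710 genes, 6.56% were lower and 10.4% higher by the same test. With no adjustment 17 members were lower and 2 higher at a p below 0.05, against 13.4% lower and 20.7% higher over all genes. The median log2 fold change was -0.26 over the members and 0.02 over all genes. The estimate lay below 0 for 24 of the 32 members, as for 46.4% of all genes. In 17 members every homozygous array was below every heterozygous array, which held for 17.2% of all genes. In 1 member, Gypc, every homozygous array was higher, which held for 21.1% of all genes. The groups overlapped in the other 14 members, while over all genes 38.3% had groups that did not overlap in either direction. The mean intensity was below 100 in 10 of the 32 members, as in 7007 of all 18710 genes. Fold changes are homozygous minus heterozygous with the standard error (SE).

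**Figure D1:**
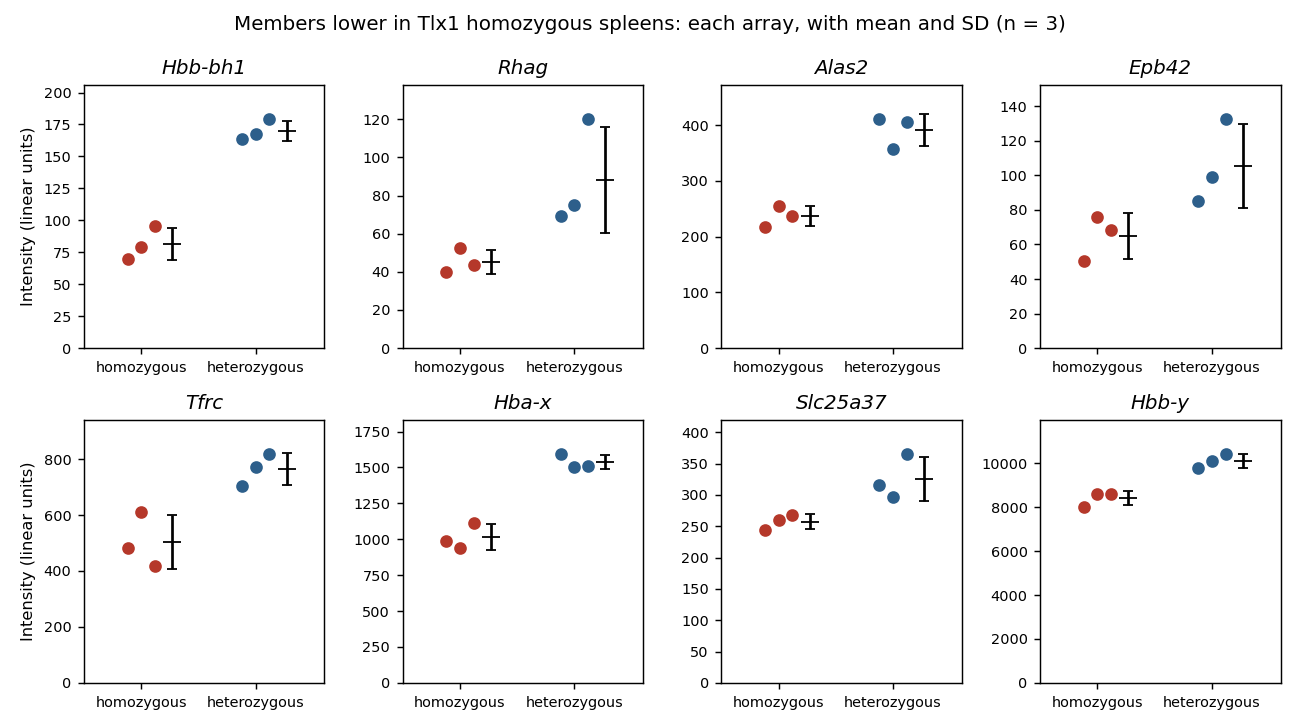
Intensity of the 8 members that were lower in homozygous spleens, by gene, in linear units on an axis that starts at 0. Points are arrays, 3 homozygous in red on the left and 3 heterozygous in blue on the right, and bars beside them give the mean and SD. In all 8 panels the groups do not overlap, and heterozygous replicate 3, the right-most blue point, stands highest for Rhag, Epb42, Tfrc, Slc25a37, Hbb-bh1 and Hbb-y.

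All 3 measured globin genes fell, as did 6.56% of all genes by the same test, and their estimates differed in size. Hbb-bh1 encodes an embryonic beta-like globin of primitive erythroblasts, and ranked 11027 from the top of all genes in mean level. Its intensity was 70.1, 79.2 and 95.3 in homozygous spleens, against 164, 167 and 179 in heterozygous spleens. The brightest homozygous array lay well under the dimmest heterozygous one, and the gene was 2.09-fold lower (log2 fold change -1.06 ± 0.11, limma adjusted p = 0.000763). Hba-x encodes zeta globin, the embryonic alpha-like chain. It stood at 989.7, 939 and 1116 in homozygous spleens, against 1594, 1502 and 1513 in heterozygous spleens. These groups did not overlap either, and the fall was 1.52-fold (-0.60 ± 0.08, limma adjusted p = 0.00243). Hbb-y encodes epsilon-y globin, the other embryonic beta-like chain, and ranked 18 from the top of all genes in mean level. It was at 8032, 8582 and 8627 in homozygous spleens, against 9773, 10112 and 10426 in heterozygous spleens. The groups again stood apart, but by a small step of 1.20-fold (-0.26 ± 0.06, limma adjusted p = 0.0252). The call of Hbb-y was lost in 4 of the 6 refits that left out 1 array (-0.29 to -0.23), those without any 1 heterozygous array and without homozygous replicate 1.

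Within each array, the log2 gap between globins was set against genotype, in comparisons chosen after the values were seen. The change of Hbb-bh1 minus that of Hbb-y was -0.80 on the log2 scale, the change of Hba-x minus that of Hbb-y was -0.34, and the change of Hbb-bh1 minus that of Hba-x was -0.46. In each case the homozygous and heterozygous arrays did not overlap. The exact permutation test, two-sided over 4 such comparisons, gave p = 0.1 for each and 0.1 after Benjamini-Hochberg adjustment. That is the smallest p that 3 against 3 arrays allow, so the test cannot decide whether the falls differed. Whether the brightness of a probe set affected the size of its fall was not tested. No kept probe set carried the symbol of a mouse adult alpha or beta globin alone, so these genes are not used here.

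Heme synthesis did not move as a block. Alas2 encodes the erythroid form of aminolevulinate synthase, the first and rate-limiting step, while the other 6 members encode later enzymes that all cells use. Alas2 was at 218, 255 and 238 in homozygous spleens, against 411, 357 and 406 in heterozygous spleens. The groups were far apart, with a 1.65-fold fall (log2 fold change -0.72 ± 0.08, limma adjusted p = 0.00148). None of the other 6 passed, and of these only Fech had an unadjusted p below 0.05.

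Fech, which inserts iron into protoporphyrin as the last step, came nearest. It was at 208, 243 and 241 in homozygous spleens, against 271, 269 and 283 in heterozygous spleens. The groups did not overlap, and its log2 fold change was -0.25 ± 0.08 (limma adjusted p = 0.0518). It passed under 4 of the 10 other settings (adjusted p = 0.0334 with a stricter filter) and without homozygous replicate 2 (-0.29). Urod, which acts on uroporphyrinogen, was at 595, 547 and 597 in homozygous spleens, against 618, 657 and 624 in heterozygous spleens. Its groups also stood apart, by less (-0.13 ± 0.06, limma adjusted p = 0.202).

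The remaining enzymes overlapped between groups. Cpox, which follows Urod in the pathway, had a log2 fold change of -0.09 with a 95% interval from -0.30 to 0.12. Alad, which joins aminolevulinate molecules, was at 0.07 (-0.11 to 0.24), Ppox, which oxidises protoporphyrinogen, at 0.07 (-0.08 to 0.22) and Uros, which closes the ring, at 0.02 (-0.11 to 0.16). These intervals do not reach the estimate of Alas2. The change of Alas2 differed from the mean change of the other 6 enzymes by -0.67 on the log2 scale, with no overlap of the groups (exact permutation p = 0.1, the smallest possible, and 0.1 adjusted over the same 4 comparisons).

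Of 3 genes that supply iron and glycine, 2 fell, as did 6.56% of all genes. Tfrc encodes the transferrin receptor, which takes up iron in erythroblasts and in other dividing cells. It stood at 481, 611 and 419 in homozygous spleens, against 702, 772 and 818 in heterozygous spleens. The homozygous arrays were widely spread but all below the heterozygous ones (1.53-fold lower, log2 fold change -0.61 ± 0.13, limma adjusted p = 0.0164). Slc25a37 encodes mitoferrin, the mitochondrial iron importer of erythroblasts. It was at 245, 259.8 and 268 in homozygous spleens, against 315, 297 and 365 in heterozygous spleens. The step between the groups was narrow (-0.34 ± 0.09, limma adjusted p = 0.0318). That call held in 1 of the 6 refits without 1 array, that without heterozygous replicate 2, and was lost after quantile normalization (-0.27) and cyclic loess (-0.29). The glycine carrier gene Slc25a38 was at -0.08 ± 0.07 (limma adjusted p = 0.437) with overlapping groups.

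**Figure D2:**
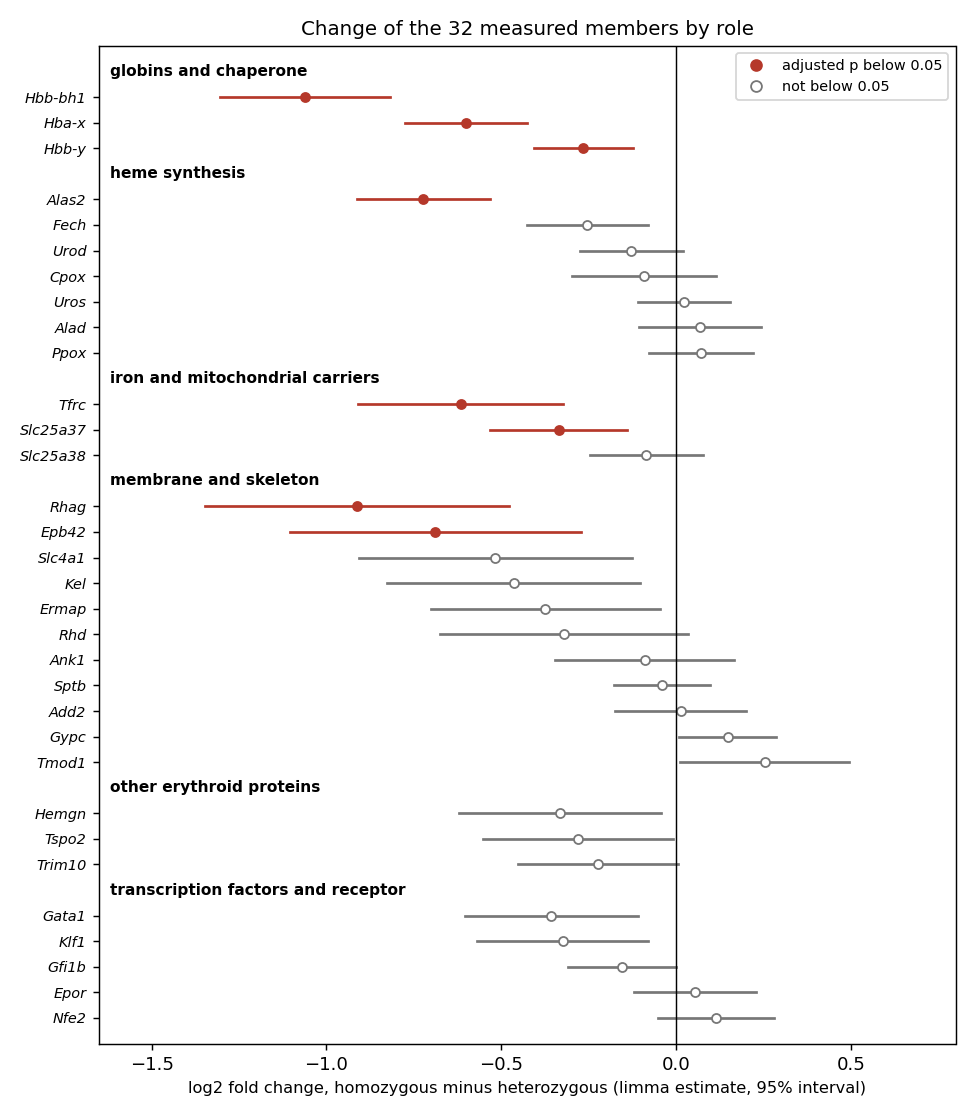
Log2 fold change of the 32 measured members, homozygous minus heterozygous, with the 95% interval of the limma estimate, grouped by role. Filled red points passed at an adjusted p below 0.05 and open grey points did not. All 3 globins are red, Alas2 stands apart from the other 6 heme enzymes, and the widest intervals are those of the membrane genes Rhag and Epb42.

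Among 11 measured genes of the red cell membrane and its skeleton 2 fell (6.56% of all genes) and none rose (10.4%). Their median log2 fold change was -0.32. With no adjustment 5 of the 11 were lower and 2 higher at a p below 0.05, where all genes had 13.4% lower and 20.7% higher. Rhag encodes the Rh-associated glycoprotein that carries the Rh complex to the membrane. It was dim, at 39.8, 52.4 and 43.6 in homozygous spleens, against 69.3, 75.3 and 120.0 in heterozygous spleens. The groups did not overlap, although heterozygous replicate 3 stood well above the other two (1.88-fold, log2 fold change -0.91 ± 0.19, limma adjusted p = 0.0164). Without that array the fall of Rhag still passed, at -0.67 (limma adjusted p = 0.0129), while the call was lost without homozygous replicate 1 (-0.83) or 3 (-0.89). Epb42 ties the anion exchanger to the skeleton beneath the membrane. It stood at 50.3, 76.1 and 68.6 in homozygous spleens, against 85.3, 98.9 and 133 in heterozygous spleens. The order of arrays resembled that of Rhag, with a fall of 1.61-fold (-0.69 ± 0.18, limma adjusted p = 0.0362). That call was lost without heterozygous replicate 2 (-0.72) or 3 (-0.51) and without homozygous replicate 1 (-0.52) or 3 (-0.74).

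A further 4 membrane genes had estimates below 0 without passing. Slc4a1, which encodes the chloride and bicarbonate exchanger of red cells, was at 276, 351 and 331 in homozygous spleens, against 373, 414 and 609.9 in heterozygous spleens. Its log2 fold change was -0.52 ± 0.17 (limma adjusted p = 0.0713), and -0.31 without heterozygous replicate 3. Kel, the Kell blood group peptidase gene, was at 56.8, 73.1 and 73.0 in homozygous spleens, against 75.4, 90.8 and 118 in heterozygous spleens. The groups of both genes did not overlap, and Kel was at -0.46 ± 0.16 (limma adjusted p = 0.0776), or -0.30 without that array. Ermap, an erythroblast membrane receptor gene, was at -0.37 ± 0.14 and at -0.19 without it. Rhd, which encodes an Rh blood group antigen, was at -0.32 ± 0.16 and at -0.13 without it.

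The skeleton genes had estimates nearer 0. Sptb, which encodes beta spectrin, was at -0.04 with a 95% interval from -0.18 to 0.10, Ank1, the ankyrin that anchors it, at -0.09 (-0.34 to 0.17) and Add2, a subunit of the actin-capping adducin, at 0.01 (-0.17 to 0.20). All 3 overlapped between groups. Gypc, which encodes glycophorin C and is also made outside the red cell lineage, stood at 953, 1033 and 984 in homozygous spleens, against 902, 898 and 878 in heterozygous spleens. It was the 1 member with every homozygous array on the higher side (0.15 ± 0.06, limma adjusted p = 0.126). Tmod1, which caps the slow-growing end of actin filaments, had 2 probe sets of opposite sign. The brighter was at 0.25 ± 0.11 (limma adjusted p = 0.131) and passed as higher without homozygous replicate 2 (0.35), while the dimmer was at -0.22.

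None of the 3 other erythroid proteins passed in limma, although 2 were lower at an unadjusted p below 0.05, as were 13.4% of all genes. Hemgn, which encodes the nuclear protein hemogen, was at 68.2, 65.0 and 71.9 in homozygous spleens, against 76.2, 77.7 and 108 in heterozygous spleens. The groups stood apart by little (log2 fold change -0.33 ± 0.13, limma adjusted p = 0.104). Tspo2, the erythroid translocator protein gene, was at 47.1, 65.3 and 56.4 in homozygous spleens, against 61.0, 73.1 and 70.3 in heterozygous spleens. Here homozygous replicate 2 lay above heterozygous replicate 1 (-0.28 ± 0.12, limma adjusted p = 0.138). Trim10, a ring finger gene of terminal erythroid maturation, was at -0.22 ± 0.10 (limma adjusted p = 0.157).

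Of 4 erythroid transcription factors and the erythropoietin receptor none passed in limma, and 3 were lower at an unadjusted p below 0.05 (13.4% of all genes). Gata1, the X-linked zinc finger factor at the head of the program, was at 104, 78.9 and 97.4 in homozygous spleens, against 112, 116 and 131 in heterozygous spleens. Its groups did not overlap, and its log2 fold change of -0.36 ± 0.11 lay close to the threshold (limma adjusted p = 0.0546), and it passed under 7 of the 10 other settings (cyclic loess gave an adjusted p = 0.0252) but in no refit without 1 array. Klf1, which activates globin and membrane genes, was at 88.3, 85.4 and 86.0 in homozygous spleens, against 100.4, 97.3 and 131 in heterozygous spleens. It too stood apart by group (-0.32 ± 0.11, limma adjusted p = 0.0712), and passed under all 3 other scalings (cyclic loess gave an adjusted p = 0.0309). Klf1 passed in no refit without 1 array, and was at -0.19 without heterozygous replicate 3.

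Gfi1b, a repressor needed in erythroid and megakaryocytic cells, was nearly level on the homozygous arrays. It stood at 163, 163 and 160.4 in homozygous spleens, against 173, 175 and 195 in heterozygous spleens (-0.15 ± 0.07, limma adjusted p = 0.146). Nfe2, the leucine zipper factor of globin enhancers, was at 66.0, 64.4 and 65.9 in homozygous spleens, against 60.4, 65.5 and 55.5 in heterozygous spleens. These overlapped, with the estimate above 0 (0.12 ± 0.07, limma adjusted p = 0.300). Epor, through which erythropoietin keeps erythroid progenitors alive, had a log2 fold change of 0.05 with a 95% interval from -0.12 to 0.23.

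**Figure D3:**
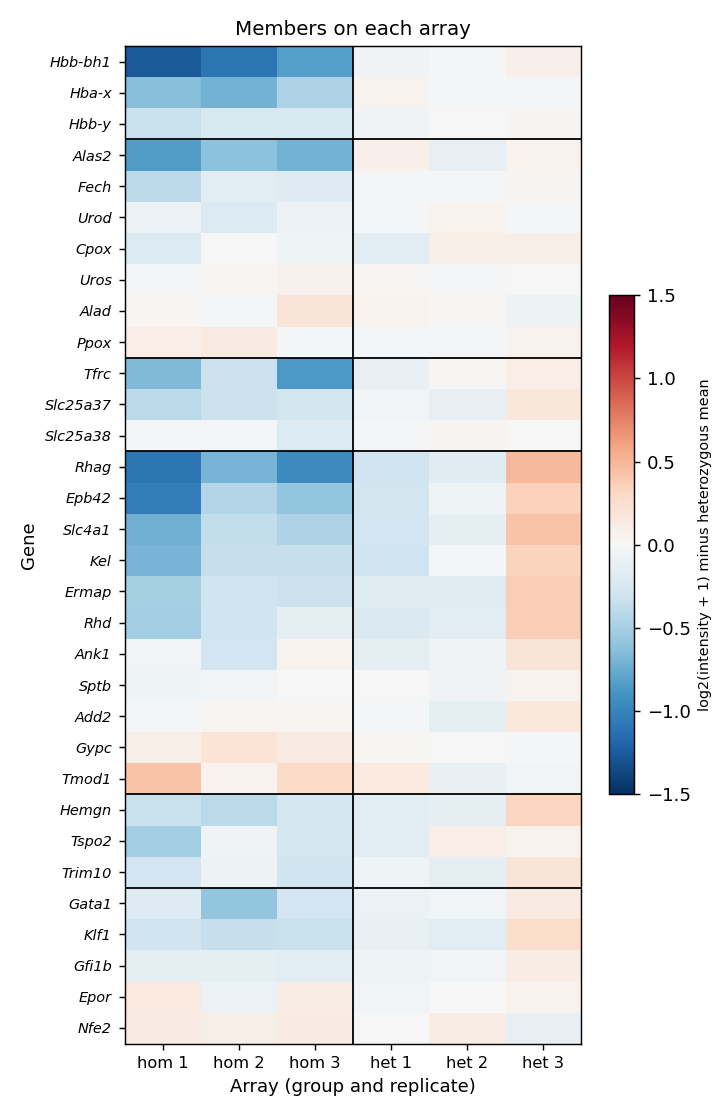
Each of the 32 measured members (rows, by role) on each array (columns, 3 homozygous then 3 heterozygous), as log2(intensity + 1) minus the mean of the heterozygous arrays of that gene, blue for lower and red for higher. The globins and Alas2 are blue on all 3 homozygous arrays, and most membrane genes are reddest on heterozygous replicate 3.

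The arrays of a group were not alike in these genes. Homozygous replicate 1 was the lowest of its group in 17 of the 32 members, against 28.1% of all genes. Heterozygous replicate 3 was the highest of its group in 22 of the 32, among them 9 of the 11 membrane and skeleton genes, against 40.0% of all genes. Without heterozygous replicate 3, 5 members were lower, namely Hbb-bh1, Hba-x, Alas2, Tfrc and Rhag, as were 834 of all 18710 genes. The median of the members was then -0.15. Without homozygous replicate 1, 3 were lower, namely Hbb-bh1, Hba-x and Alas2, as were 499 of all genes, and Tfrc lost its call (-0.59). Without homozygous replicate 3, 5 were lower, namely the 3 globins, Alas2 and Tfrc, as were 835 of all genes. The mean log2 level of 3 Y-linked genes (Uty, Kdm5d, Eif2s3y), centred over the arrays, was also highest on heterozygous replicate 3. It was -0.15, -0.25 and -0.30 on the homozygous arrays and 0.39, -0.30 and 0.62 on the heterozygous arrays. With that level as a covariate Hbb-bh1, Hba-x and Alas2 were lower, as were 507 of all genes, and the median of the members was -0.15.

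**Figure D4:**
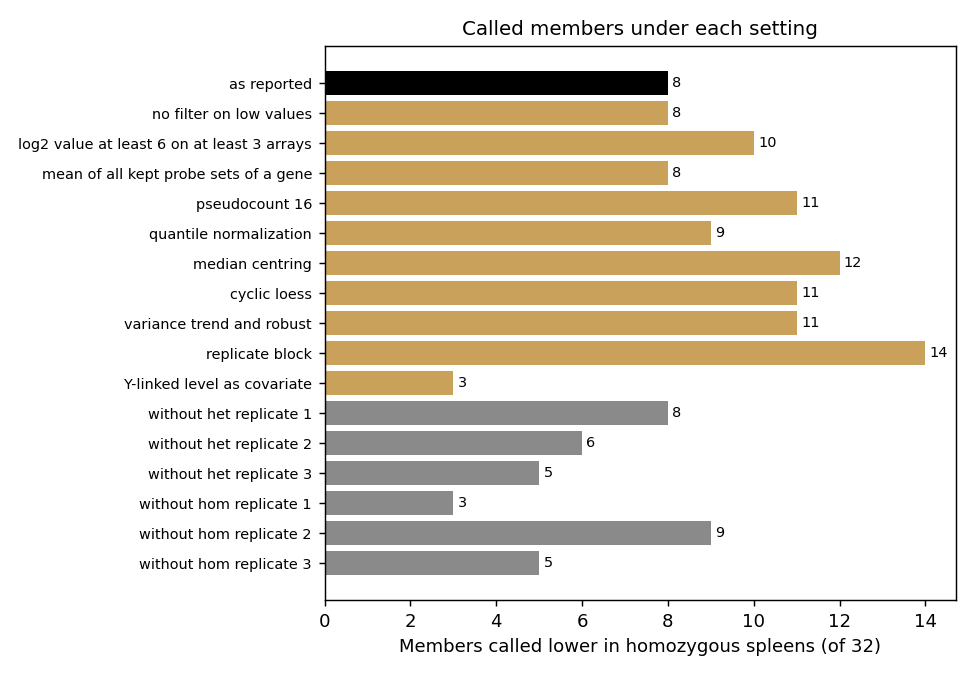
Number of the 32 measured members called lower in homozygous spleens at an adjusted p below 0.05, as reported (black), under 10 other settings (tan) and in 6 refits without 1 array (grey), on an axis that starts at 0. The count was 8 as reported, and ran from 3 to 14 over the settings and from 3 to 9 over the refits.

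Of 61 other genes of red cell function, 51 were measured, with a median log2 fold change of -0.08. Of these 8 (15.7%) fell and 4 rose, where 6.56% of all genes were lower and 10.4% higher. Car2 encodes a carbonic anhydrase that is abundant in red cells and present in other tissues. It was at 145, 181 and 197 in homozygous spleens, against 271, 273 and 355 in heterozygous spleens. The groups were clearly apart (-0.78 ± 0.14, limma adjusted p = 0.0087). Cd24a, a surface glycoprotein gene of erythroblasts and many other cells, averaged 3440.0 ± 62.3 in homozygous and 4578 ± 362 in heterozygous spleens (SD, n = 3; -0.41 ± 0.07). Lmo2, a bridging partner of GATA1 in blood and endothelial cells, averaged 536 ± 22.4 in homozygous and 694 ± 28.4 in heterozygous spleens (SD, n = 3; -0.37 ± 0.06). Smaller falls were those of the urea transporter gene Slc14a1 (-0.33), of Bpgm, which makes the regulator of oxygen affinity bisphosphoglycerate (-0.32), and of the repressor gene Klf3 (-0.26). Without 1 array these 3 lost their calls in several refits, Bpgm in all but that without heterozygous replicate 2 (-0.36 to -0.26). Slc14a1 kept its call only without heterozygous replicate 3 or homozygous replicate 3, and Klf3 without heterozygous replicate 3 or homozygous replicate 2 or 3. The other called genes of that list were Mpp1 and Myb, whose calls were lost in every refit.

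The 4 rises were those of Sox6, Add3, Trim58 and Zfpm1, and 10.4% of all genes were higher by the same test. Sox6, a factor that represses Hbb-y in definitive red cells and also acts in cartilage and muscle, was at 455, 488 and 463 in homozygous spleens, against 287, 306 and 299 in heterozygous spleens. Every homozygous array was higher (0.65 ± 0.06, limma adjusted p = 0.000565). Add3, the widely made gamma adducin, averaged 1292 ± 73.8 in homozygous and 909 ± 53.2 in heterozygous spleens (SD, n = 3; 0.51 ± 0.07). Trim58, a ubiquitin ligase gene of late erythroblasts, was dim, at 61.5 ± 2.42 in homozygous and 47.5 ± 6.99 in heterozygous spleens (SD, n = 3; 0.38 ± 0.10), and lost its call after cyclic loess (0.26) and in the refits other than those without heterozygous replicate 3 or homozygous replicate 2. Zfpm1, which encodes the GATA1 cofactor FOG1, was at 0.26 ± 0.07 and kept its call in 1 refit, that without homozygous replicate 2.

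Markers of other cells moved in the same samples. Over all genes 6.56% were lower and 10.4% higher at an adjusted p below 0.05. With no adjustment these shares were 13.4% and 20.7%. Endothelium markers were lower in 7 of 8, with summed intensities of 5183 to 5627 in homozygous and 7234 to 7667 in heterozygous arrays. Megakaryocyte markers were lower in 3 of 6 (607 to 839 in homozygous and 1051 to 1296 in heterozygous arrays). Ppbp fell most of these (179 ± 74.8 in homozygous and 565 ± 92.7 in heterozygous spleens, SD, n = 3). Pf4, Itga2b and Gp9 were not called. Stem and progenitor markers were lower in 3 of 5 (1505 to 1597 in homozygous and 2388 to 2455 in heterozygous arrays). One of the 3 was Cd34, which is also in the endothelium list (943 ± 45.5 in homozygous and 1600 ± 18.1 in heterozygous spleens, SD, n = 3). Flt3 and Spi1 were not called. Macrophage markers passed in 0 of 8 in limma, with 1 lower and 2 higher at an unadjusted p below 0.05, and their sums overlapped (2825 to 3122 in homozygous and 2806 to 2928 in heterozygous arrays). Hepatocyte markers, of interest because the fetal liver makes red cells, passed in 0 of 7 in limma, with 1 higher at an unadjusted p below 0.05, and their sums overlapped (1043 to 2211 in homozygous and 1271 to 1959 in heterozygous arrays). Alb was at 323, 231 and 583 in homozygous spleens, against 620.4, 652 and 306 in heterozygous spleens. Ttr was at 1134, 250.3 and 712 in homozygous spleens, against 191, 271 and 328 in heterozygous spleens. Heterozygous replicate 3 was the lowest of its group in 6 of the 7 hepatocyte markers, against 31.3% of all genes. It was the highest in 1, Ttr, against 40.0% of all genes. Exocrine pancreas markers rose in 2 of 4 (1783 to 1987 in homozygous and 447 to 1013 in heterozygous arrays). Cpa1 held most of these sums (1664 ± 103 in homozygous and 534 ± 290 in heterozygous spleens, SD, n = 3). Ptf1a and Cel were not called. Epithelium markers rose in 1 of 5 (3116 to 3436 in homozygous and 2361 to 3081 in heterozygous arrays). No list had a measured marker at 0, and the part of these cells in the erythroid values was not tested.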

How the data were processed

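The authors deposited 1 linear intensity for each probe set and array. The submitters' processing notes name GCRMA, without a version, as the method, and no probe set definition or build was found for it in the labels. Array medians ran from 106 to 110. A platform annotation table gave 21789 of 35512 probe sets a sole symbol, and only those entered. Probe sets with log2(intensity + 1) of at least 4 on at least 3 of 6 arrays were kept, and the brightest for each gene was used, leaving 18710 genes.

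Groups came from the labels. Homozygous was compared with heterozygous in limma 3.58.1 under R 4.3.3 (lmFit and eBayes, two-sided, no covariate), with Benjamini-Hochberg adjustment over all genes and a threshold of 0.05. The code was checked on simulated data. Precision is set by having 3 arrays in each group. Deviations of same-numbered replicates correlated at -0.01, 0.04 and -0.11, and no pairing was used, although 3 arrays in each group cannot exclude one. Alternatives changed the filter, pseudocount, probe set choice, scaling, variance model, replicate block and Y-linked covariate, and left out each array. The members, gene lists and tests were chosen with earlier results of these data known. All 34 members are named, as are the 10 called genes of the other erythroid list with the largest changes, and the other named genes were chosen after their values were seen.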

Additional observations from a re-analysis of the deposited data

How the results depend on the processing

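Of 512 values of the 32 members over 10 settings and 6 refits without 1 array, 453 kept their direction and their side of the threshold, 23 lost a call and 29 gained one. Hbb-bh1, Hba-x and Alas2 were called lower in every one of these. The 7 that turned sign were near 0 and uncalled: Sptb with the Y-linked level as covariate (0.0057), Ank1 (-0.16 to 0.0090 over the refits), and Add2 after quantile normalization (-0.036), median centring (-0.0049) and cyclic loess (-0.093) and over the refits (-0.057 to 0.092). Replicates share numbers but the labels name no pairing, and with the replicate block 14 members were lower. With the Y-linked covariate 3 members and 1 other erythroid gene were lower, and over all genes 507 were lower and 1140 higher, against 1227 and 1951 as reported. Without 1 array the lower members ran from 3 to 9 and the higher from 0 to 1, the other erythroid genes from 3 to 7 lower and from 2 to 4 higher, and all genes from 499 to 1244 lower and from 699 to 2319 higher. The lowest of these counts over members and over all genes came without homozygous replicate 1, and the lower count over all genes also moved by over 1.5 times without heterozygous replicate 1 (643) or 2 (556), as did the higher count without those (1046 and 820) or without homozygous replicate 3 (987). Fewer samples entered those refits, and the cause of the other shifts was not tested. No value could be had for Ahsp and Epb41.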
